A study of Caenorhabditis elegans with 2 samples.

Results

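The peaks described here are sites of the zinc finger protein MCD-1 that lie close upstream of a single gene, or of genes on the same strand, on the autosomes of Caenorhabditis elegans. A promoter window reached from 1000 bp before to 200 bp past the 5′ end of each protein-coding gene. A peak was taken when its summit, the point of highest signal, lay in the windows of genes on one strand only, and 1 to 300 bp upstream of the nearest of their 5′ ends. The rule used position alone and no measured signal. It chose 630 of the 3903 peaks (16.1%) of the authors' conservative list, and they are called core promoter peaks below. The other peaks comprised 504 further from the 5′ end of a one-strand promoter (upstream peaks), 615 in windows of genes on both strands (bidirectional peaks), 162 inside the start of a gene, 1561 away from promoters and 431 on the X chromosome.

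The data came from chromatin immunoprecipitation with sequencing (ChIP-seq), in which an antibody against GFP recovered DNA bound by the tagged protein from whole young adults. The animals were of strain RW12215, in which CRISPR editing had put a TY1, EGFP and 3xFLAG tag into mcd-1 at its own place on chromosome II. They were synchronised by starving newly hatched L1 larvae after bleaching and collected at 65 hours, and both samples carried the tag. The samples were 2 biological replicates of 1 group, without another condition. A whole animal holds many cell types, so the share of cells in which a site was bound cannot be told apart from the strength of binding in each. The deposited lists hold no read counts, and the sequencing depth of the replicates is unknown.

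A promoter is the stretch of DNA before a gene where general and sequence-specific factors assemble and RNA polymerase II starts. In C. elegans the first part of many transcripts is replaced by a short spliced leader, so an annotated 5′ end often marks the site of that trans-splicing and transcription can begin well upstream of it. Neighbouring genes can also be read as one operon from the promoter of the first gene, and divergent neighbours can share the DNA between them. MCD-1, a modifier of cell death, is known to act redundantly with the retinoblastoma homologue LIN-35, whose partners form the DRM complex that recognises E2F sites and cell cycle homology regions (CHR).

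The sequences at the summits are shown first, because short letter patterns recurred in them. Each line is a window of 50 bp on each side of a summit, read 5′ to 3′ on the strand of its gene from RefSeq's WBcel235 (ce11), and no window touches an annotated exon or UTR. Capitals mark the 5-letter motif GAGCG or its reverse complement in the holders with the highest signal.
eelo-2 (chrIV:17249857-17249957, plus strand): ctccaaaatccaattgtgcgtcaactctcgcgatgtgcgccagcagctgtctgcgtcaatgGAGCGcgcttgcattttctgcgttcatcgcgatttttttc
ntl-11 (chrIV:15471562-15471662, minus strand): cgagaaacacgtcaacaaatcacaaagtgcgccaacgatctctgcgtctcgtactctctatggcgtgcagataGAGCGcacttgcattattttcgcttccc
C47E8.4 (chrV:14685719-14685819, minus strand): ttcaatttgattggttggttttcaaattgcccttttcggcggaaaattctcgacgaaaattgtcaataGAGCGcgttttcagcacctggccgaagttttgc

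In the strongest of these windows GAGCG went on into a longer pattern of 12 letters: GAGCGC, then any 2 letters, then TTGC. This 12-letter form was chosen after the windows had been seen. It stands in lower case around the capitals at eelo-2 and ntl-11, and capitals mark it, here as its reverse complement, in 4 further strong holders. The windows of sti-1 and tag-281, printed below for another motif, also hold it in lower case.
F48A11.4 (chrII:216732-216832, minus strand): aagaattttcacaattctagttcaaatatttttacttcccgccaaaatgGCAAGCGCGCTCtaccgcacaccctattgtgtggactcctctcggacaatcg
unc-85 (chrII:4701739-4701839, plus strand): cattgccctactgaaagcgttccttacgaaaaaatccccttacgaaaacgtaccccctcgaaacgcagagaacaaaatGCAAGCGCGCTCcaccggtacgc
mrpl-55 (chrIV:443805-443905, plus strand): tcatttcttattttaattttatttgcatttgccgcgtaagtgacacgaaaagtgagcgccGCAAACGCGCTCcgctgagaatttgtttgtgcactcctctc
mcm-2 (chrII:12006827-12006927, minus strand): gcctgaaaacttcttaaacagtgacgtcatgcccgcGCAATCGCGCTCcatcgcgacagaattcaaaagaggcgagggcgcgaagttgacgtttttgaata

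The other motifs with the largest excess over promoters at large were GAGAGA, then CTGCGTC, then CGCGCG. Capitals mark GAGAGA, as its reverse complement TCTCTC, at sec-61.G, sti-1 and tag-281, the reverse complement of CTGCGTC at Y73F8A.27, and CGCGCG at hat-1, fbxl-2 and hcp-1. The highest holders of CTGCGTC were eelo-2 and ntl-11, whose windows are printed above.
sec-61.G (chrV:10897326-10897426, minus strand): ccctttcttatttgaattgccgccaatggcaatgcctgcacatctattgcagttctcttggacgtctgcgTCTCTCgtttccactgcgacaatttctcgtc
sti-1 (chrV:773401-773501, plus strand): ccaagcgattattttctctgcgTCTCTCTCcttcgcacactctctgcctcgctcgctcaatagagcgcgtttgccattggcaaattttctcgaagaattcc
tag-281 (chrII:12459604-12459704, plus strand): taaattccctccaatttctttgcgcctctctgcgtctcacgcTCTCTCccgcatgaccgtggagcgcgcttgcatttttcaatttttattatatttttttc
Y73F8A.27 (chrIV:15472539-15472639, plus strand): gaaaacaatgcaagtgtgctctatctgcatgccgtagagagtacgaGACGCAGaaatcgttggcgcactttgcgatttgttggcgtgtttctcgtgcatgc
hat-1 (chrIII:10407437-10407537, minus strand): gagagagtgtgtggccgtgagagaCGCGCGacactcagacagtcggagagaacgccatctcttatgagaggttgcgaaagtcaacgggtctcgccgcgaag
fbxl-2 (chrIII:4757135-4757235, plus strand): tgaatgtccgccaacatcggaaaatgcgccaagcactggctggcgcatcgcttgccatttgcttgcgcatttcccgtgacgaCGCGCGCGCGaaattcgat
hcp-1 (chrV:6593849-6593949, plus strand): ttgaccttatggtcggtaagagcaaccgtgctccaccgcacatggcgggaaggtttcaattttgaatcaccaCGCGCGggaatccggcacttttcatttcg

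Core promoter peaks were stronger than most of the list, and weaker than the bidirectional peaks. The deposited signal value, a measure of enrichment from the peak caller, ranged from 3.20 to 6544 over the 630 peaks with a median of 208. For each replicate the signal of the overlapping peak in its own list was divided by its median over all conservative peaks, and values below are these multiples. The core promoter peaks had a median multiple of 1.44 in replicate 1 and 1.26 in replicate 2 (mean 1.35 ± 0.125 SD, n = 2). Between the quartiles the multiples ran from 0.883 to 3.00 in replicate 1 and from 0.759 to 2.74 in replicate 2, so weak and strong sites are both common among them.

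Both replicates placed the core promoter peaks below the bidirectional and above the upstream peaks. The core promoter median was 0.766 times the bidirectional median in replicate 1 and 0.751 times in replicate 2 (0.759 ± 0.0111). Against the upstream peaks the ratio was 1.35 in replicate 1 and 1.16 in replicate 2 (1.26 ± 0.131). Set against all other conservative peaks together it was 1.54 and 1.32 (1.43 ± 0.154). Each of these ratios stood on the same side of 1 in both replicates, and the 2 replicates are all the replication there is, so no test was made. Among the 975 strongest peaks of the conservative list were 230 of the 630 core promoter peaks (36.5%), where 25% of all peaks are by construction, beside 47.6% of the bidirectional and 27.4% of the upstream peaks. The highest score, 1000, was held by 565 core promoter peaks (89.7%), against 81.8% of all conservative peaks and 92.4% of the bidirectional peaks.

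**Figure D1:**
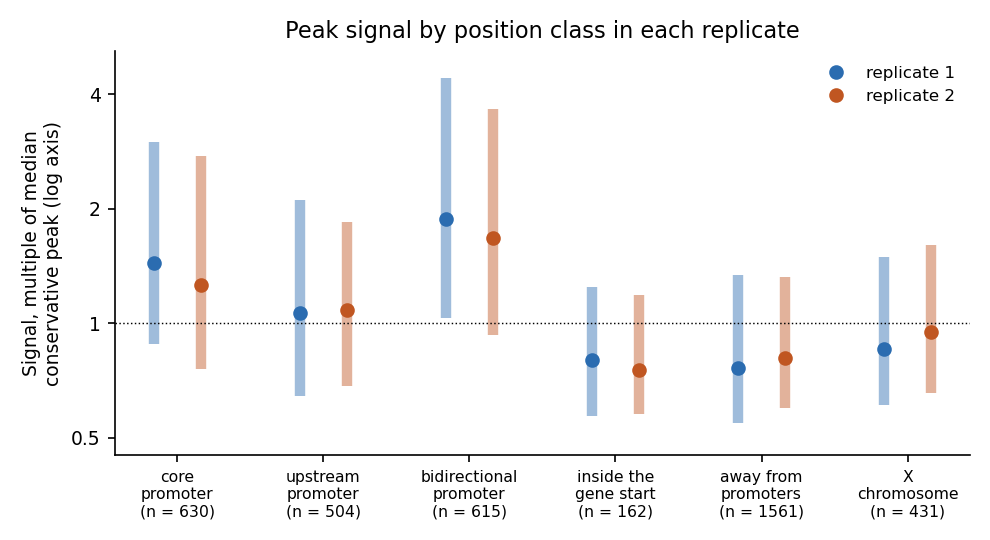
Signal of the peaks of each position class in replicate 1 (blue) and replicate 2 (orange), as multiples of the median conservative peak on a log axis. Points are medians and bars run between the quartiles over peaks. The core promoter medians, 1.44 and 1.26, lie under the bidirectional and above the upstream medians in both replicates.

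The replicates gave similar values at these sites. Of the 630 peaks 452 (71.7%) overlapped a peak in both replicates' own thresholded lists, against 59% of all conservative and 79.2% of the bidirectional peaks. A further 60 of the 630 overlapped neither list, against 708 of the 3903 conservative peaks. A value in both replicates was found for 624, and across these peaks, which share 2 libraries and are not independent, Spearman's rho was 0.880 and Pearson's r of the log2 values 0.928. Between replicates the log2 ratio had an SD of 0.51, against 0.54 over all conservative peaks. Of the 624, 31 (4.97%) lay over 2-fold from the median ratio, close to the 4.77% of all conservative peaks. The summits in the replicates' own lists lay a median of 16 bp apart, and 69.2% lay within 25 bp of each other. Over all conservative peaks these were 20 bp and 57.5%, and at bidirectional peaks 13 bp and 76.1%. The conservative list was itself chosen for like ranks in the replicates, so this is a description of selected sites.

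**Figure D2:**
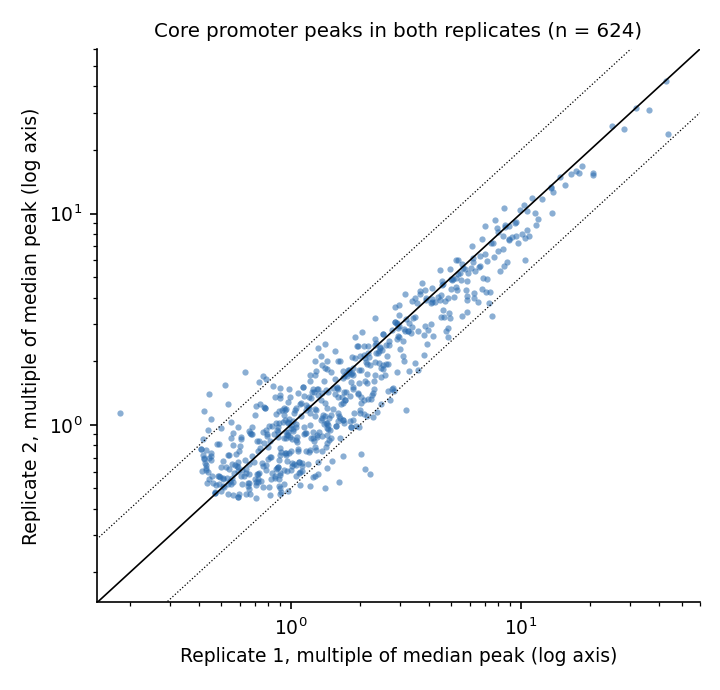
Signal of the 624 core promoter peaks found in both replicates, as multiples of the median conservative peak on log axes. Each point is a peak, the solid line marks equal values and the dotted lines a 2-fold difference. The points follow the solid line over the whole range. Strong peaks such as cdc-48.1 (43.6 and 23.7) also lie off it, and rps-16 (0.180 and 1.13) lies farthest.

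The largest differences between the replicates were at weak or moderate peaks. The peak 55 bp upstream of the ribosomal protein gene rps-16 gave 0.180 times the median peak in replicate 1 and 1.13 times in replicate 2, a log2 ratio of -2.65. Replicate 2 was also higher at mab-10 (0.440 and 1.41) and at the ubiquitin-conjugating enzyme gene ubc-3 (0.516 and 1.54). In the other direction F53F10.2 gave 2.22 in replicate 1 and 0.585 in replicate 2, kel-3 gave 2.11 and 0.619, and npp-5, a nucleoporin gene, gave 1.62 and 0.539. Values at such sites rest on replicates that do not repeat each other. At kel-3 the conservative summit lay at -77 bp. The matched summits lay at -53 bp in replicate 1 and 18 bp inside the gene in replicate 2, so its values may not measure the same site.

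The 25 strongest core promoter peaks included genes of protein folding, transport, replication and chromatin. The peak at eelo-2 (chromosome IV, 17249675 to 17250153), 224 bp upstream of its 5′ end, had the highest signal of the whole list, with 42.9 times the median peak in replicate 1 and 42.2 times in replicate 2 (42.6 ± 0.496). It lies between eelo-2 and ZK550.2, which is 380 bp away on the same strand. The next was cdc-48.1, which encodes the p97 AAA ATPase that extracts ubiquitinated proteins (II, 10563341 to 10563800). Its replicates stood apart, at 43.6 and 23.7 (33.6 ± 14.1), so its rank among the leading peaks is uncertain. At ntl-11, which encodes a subunit of the CCR4-NOT deadenylase (IV, 15471276 to 15471884), replicate 1 gave 36.2 and replicate 2 gave 30.8.

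Among the next peaks some replicates lay close together and others apart. Y39B6A.43 gave 31.7 and 31.5 with its summit 19 bp from the 5′ end, while C47E8.4 gave 28.1 and 25.2 with its summit at -284 bp, where negative positions lie upstream. For rpl-3, a protein of the large ribosomal subunit, the values were 25 and 25.9 at -282 bp. F48A11.4 (20.6 and 15.6), imb-3, an importin gene (20.5 and 15.3), and mrpl-28, of the mitochondrial ribosome (18.5 and 16.8), came next. The co-chaperone gene bag-1 gave 18 and 15.5. These leading peaks lay anywhere from 19 to 284 bp upstream, and position did not order their strength.

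Among the rest of the 25, unc-85, a homologue of the histone chaperone ASF1, gave 14.8 in replicate 1 and 14.9 in replicate 2, and mog-4, a DEAH helicase gene of splicing, gave 15.6 and 13.6. Both sec-61.G, a subunit gene of the endoplasmic reticulum translocon (13.5 and 13.3), and the HSP90 co-chaperone gene sti-1 (13.5 and 13.2) had nearly equal replicates; the sec-61.G summit also lay in the window of F32D8.13. Cyclophilin gene cyn-3 gave 13.8 and 12.7. The autophagy gene atg-9 gave 11.2 and 11.8, pig-1, a kinase gene of the MELK family, 10.4 and 11.0, and mes-2, which encodes the methyltransferase of Polycomb repressive complex 2, 11.7 and 8.83. The remaining members of the 25 were Y73F8A.27, C34C12.8, mrpl-55, mcm-2, Y48G10A.2, tag-281 and F44E7.4, with means from 10.5 to 16.7. In all, 26 peaks had a mean over 10 times the median peak, and 219 (35.1%) were below it.

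At the lower end, 9 core promoter peaks had a deposited signal under 20, and each lay 199 to 213 bp from a stronger summit. The 5 weakest were F48E8.4 (3.20), sir-2.1 (3.61), sor-1 (4.18), tut-1 (4.59) and imp-3 (5.73). The gene sir-2.1 encodes a sirtuin deacetylase, and its weak summit lay 202 bp from one with a signal of 115. Replicate values for such a summit are those of the neighbour's peak as well: all 9, and 43 of the 630 in total, drew a replicate value from a peak that another conservative summit also used. So the multiples of imp-3's weak summit, 1.72 and 1.31, do not measure it on its own.

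The 630 summits belonged to 623 genes, because 7 genes had a pair of them. These were imp-3, daf-2, dpsm-1, hasp-1, did-2, F48E8.4 and zip-12. The members of each pair lay 199 to 213 bp apart and differed in signal, as at the insulin receptor gene daf-2 with 223 at -83 bp and 9.24 at -282 bp. A further gene on the same strand had its window over the summit at 36 peaks (5.71%).

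Summits lay over the whole window, with the densest part more than 100 and up to 150 bp upstream. The median distance to the 5′ end was 156 bp, and it was 153.5 bp from replicate 1's own summits and 157 bp from those of replicate 2. The 50 bp bins from the 5′ end outward held 77, 86, 136, 115, 113 and 103 peaks. Beyond the upstream edge of the rule the next bin, 301 to 350 bp, held 67, and the first 50 bp inside the gene held 52, so the count falls away on both sides of the window without a gap. Strength did not follow position: Spearman's rho between distance and multiple was 0.025 in replicate 1 and 0.028 in replicate 2 across 624 peaks.

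The edges of the rule cut through a continuous distribution. Just inside the upstream edge stood tag-322 at -300 bp (4.87 ± 1.39), with nrde-4 (6.21 ± 0.0201) and gst-27 (1.80 ± 0.0349) at -299 bp. Just outside, at -301 bp, were ima-3 (0.745 ± 0.274), T19H5.4 (0.648 ± 0.273) and F22B7.9 (0.576 ± 0.106). At the downstream edge pygl-1 (1.46 ± 0.580) and C47B2.2 (0.714 ± 0.0965) lay at -2 bp and cdk-7 (5.80 ± 0.355) at -1 bp, while W02B3.3 (0.711 ± 0.199) lay at 0 and rsa-2 (1.54 ± 0.0447) and kap-1 (0.828 ± 0.242) at 2 bp inside the gene.

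**Figure D3:**
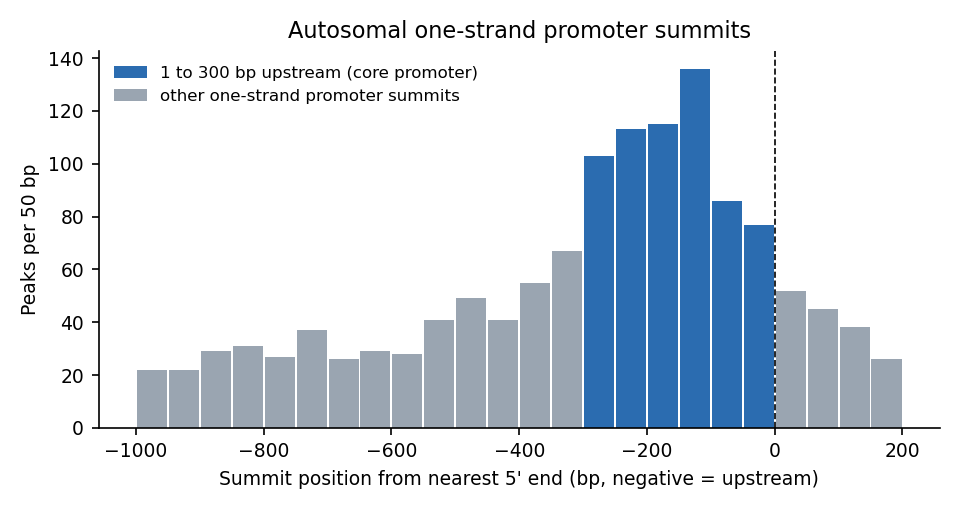
Number of autosomal one-strand promoter summits per 50 bp by position from the nearest protein-coding 5′ end, with negative positions upstream. Blue bars are the core promoter peaks and grey bars other one-strand summits; the tallest bar holds the 136 summits more than 100 and up to 150 bp upstream.

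Genes with a core promoter summit were 623 of 17242 autosomal protein-coding genes (3.61%). Their share was 5.14% on chromosome I, 4.96% on III, 3.68% on II, 3.51% on IV and 2.04% on V. The core share of each chromosome's own peaks varied less, from 17.4% to 19.6%. A gene symbol was held by 448 of the 623 (71.9%), against 55.4% of autosomal protein-coding genes. Their median length was 2780 bp, against 1964 bp.

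The gene just upstream lay on the same strand for 414 of the 623 genes (66.5%), against 54.4% of autosomal genes. In 219 (35.2%) it lay on the same strand and within 500 bp, against 19.4%, though the rule itself removes close divergent neighbours and so raises both shares. The summit fell inside the body of another protein-coding gene at 51 peaks (8.10%), against 37.5% of all conservative peaks, which include those within genes.

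Few core promoter summits lay beside noncoding genes. A tRNA gene stood within 200 bp of 11 of them (1.75%), against 5.82% of all conservative peaks, and a small nuclear RNA gene within 200 bp of none, against 49 (1.26%) of all. Small nucleolar RNA genes stood beside 10 (1.59%, against 2.33%), among them those near gst-27, the kinesin gene zen-4 and rack-1, which encodes a ribosome-bound scaffold protein.

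Which kinds of gene held a core promoter summit was counted over 32 lists of autosomal genes named by symbol, each set beside the 3.61% of all autosomal protein-coding genes. The lists together held 152 of the 623 genes (24.4%), against 20.4% of autosomal genes, so most members belong to none. A summit counted only for its nearest gene, and only core promoter summits were counted. In many lists more genes were nearest to a promoter summit of any class. These were 24 of 42 for DNA replication, 43 of 81 for cytosolic ribosomal proteins and 15 of 33 for the proteasome. The any-class share over all autosomal genes is not given here. The 3.61% counts core promoter summits only and is no baseline for these. The counts carry no test, since the lists were drawn up with results of these data known.

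Genome duplication and division were well represented. DNA replication had 10 of 42 genes (23.8%), with medians of 2.10 and 1.93 times the median peak in replicates 1 and 2. The helicase subunit gene mcm-2 led with 12.4 and 11.7 (12 ± 0.476). After it came the gene of the sliding clamp PCNA, pcn-1 (9.48 and 9.04), the origin recognition gene orc-3 (4.84 and 3.98) and the licensing factor gene cdt-1 (3.38 and 3.86). Mitosis and kinetochore genes had 8 of 75 (10.7%), led by the kinetochore gene hcp-1 (7.69 and 6.21), then zen-4 (2.31 and 3.20), knl-1 (2.32 and 1.73) and the survivin homologue bir-1 (1.56 and 1.65). Meiosis genes had 5 of 43 (11.6%); brc-1, the BRCA1 homologue, gave 8.45 and 10.7, and the synaptonemal gene syp-5 gave 1.35 and 1.30. Of tubulin and motor genes 3 of 40 had a summit, with the α-tubulin gene tba-2 at 7.93 and 6.63. Histone genes, at 3 of 76 (3.95%), stood near the background; his-37 gave 4.93 and 5.46.

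Genes of nuclear transport and transcription formed another group. Nucleoporin and transport genes had 10 of 43 (23.3%), with imb-3 highest and npp-8 (3.82 and 4.34), npp-22 (4.09 and 3.00) and npp-20 (1.86 and 1.51) after it. RNA polymerase and TFIID genes had 7 of 48 (14.6%), among them rpb-11 (8.39 and 6.79), a subunit gene of polymerase II, and rpac-19 (2.15 and 1.58), shared by polymerases I and III. The Integrator complex, which cleaves small nuclear RNA precursors, had 2 of 11: ints-5 (6.21 and 5.87) and ints-8 (0.883 and 0.923). In Mediator 2 of 25 had one, sur-2 (2.42 and 1.96) and mdt-22 (1.87 and 1.85). Splicing genes had 7 of 64 (10.9%), and after mog-4 their values were lower, as at rsp-6, an SR protein gene (2.44 and 2.33).

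Chromatin regulators had 12 of 72 genes (16.7%). Behind mes-2 stood swsn-3, of the SWI/SNF remodeller (10.1 and 7.97), the acetyltransferase gene pcaf-1 (10.4 and 6.05) and the methyltransferase gene set-4 (4.58 and 4.66). From the DRM complex and synMuv B list 2 of 15 genes had a core promoter summit. They were lin-9, which encodes a core DRM subunit (7.75 and 9.32; 8.53 ± 1.11), and lin-36 (1.23 and 1.42), and both windows held GAGCG. Of the apoptosis and engulfment genes 2 of 30 had one: mcd-1 itself, with its summit at -38 bp (2.32 and 2.38), and wah-1, the homologue of apoptosis-inducing factor (0.582 and 0.638). The window at mcd-1 held GAGAGA and no GAGCG, with a GC content of 47.5%.

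Ribosomal protein genes of the cytosol and of the mitochondrion had like shares and unlike positions. Cytosolic ribosomal protein genes had 14 of 81 (17.3%), led by rpl-3, then rps-4 (9.96 and 10.4), ubl-1, a ubiquitin fusion with a ribosomal protein (9.57 and 7.81), and rpl-41.2 (6.81 and 7.60). Their summits lay far from the 5′ end, at a median of 264 bp, with 12 of 14 over 200 bp, against 216 of all 630 (34.3%). The count therefore depends on the 300 bp limit: it was 2.47% of the list with a limit of 200 bp and 28.4% with 500 bp. Mitochondrial ribosomal protein genes had 11 of 70 (15.7%), led by mrpl-28 and mrpl-55, then mrpl-47 (6.53 and 3.80) and mrps-9 (3.48 and 1.96). Their median distance was 130 bp, and 1 of the 11 lay over 200 bp.

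The ribosomal lists also differed in letters. GAGCG stood in 7 of the 11 mitochondrial and in 1 of the 14 cytosolic windows, and the 12-letter form in 4 and in 0. Among the cytosolic windows 10 held none of the 4 motifs with the largest excess. These counts are small and a difference between the lists was not tested.

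The rest of translation had fewer core promoter summits. Promoter summits of any class were nearest to 17 of the 39 translation factor genes and 10 of the 32 synthetase genes, again without an any-class share over all genes. Translation factors had 3 of 39, the initiation factor genes eif-3.C (8.85 and 8.77), eif-3.B (2.83 and 3.05) and eif-2Bdelta (1.15 and 0.911). Aminoacyl-tRNA synthetases had 1 of 32, vars-1 (4.83 and 2.89). Of the genes of the respiratory chain and ATP synthase 9 of 64 had a summit (14.1%), led by the cytochrome oxidase genes cox-5A (9.52 and 9.09) and cox-5B (3.89 and 3.98).

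Protein turnover and folding genes were also above the background. The proteasome had 6 of 33 (18.2%), with rpn-11, the deubiquitinase of its lid, at 4.35 and 4.01 and the ATPase gene rpt-1 at 2.74 and 1.48. Ubiquitin conjugation had 8 of 50 (16%), led by the cullin gene cul-4 (2.96 and 2.60) and the SUMO-conjugating enzyme gene ubc-9 (2.34 and 1.97). Heat shock and chaperone genes had 7 of 61 (11.5%), among them sti-1, dnj-9 (5.84 and 4.07) and the prefoldin gene pfd-3 (2.94 and 2.94). The vacuolar ATPase, a proton pump, had 4 of 18 (22.2%) with mostly weak peaks: vha-16 gave 3.70 and 4.68 but unc-32 gave 0.527 and 0.560. Germ granule and germline RNA genes had 5 of 70, all below 1.5 times the median peak, with puf-3 highest (1.42 and 0.783). CCR4-NOT had 1 of 8, ntl-11.

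Among the large families of specialised genes, chemoreceptors had 2 of 1277 (0.157%), F-box genes 3 of 305 (0.984%), C-type lectins 2 of 237 (0.844%) and nuclear hormone receptors 2 of 246 (0.813%). Small GTPases had 1 of 38, arl-13. Neuropeptides (106 genes), potassium and acetylcholine channels (66) and collagens (143) had none. Both chemoreceptor genes, srh-269 (1.86 and 1.71) and srz-58 (0.810 and 0.465), had a tRNA gene within 200 bp of the summit, and so did the lectin gene clec-126 (2.49 and 2.27), a feature looked up after these members had been seen. The second lectin summit, at clec-140 (0.555 and 0.654), lay in the window of hmg-11 as well. The nuclear receptor genes nhr-57 (0.756 and 0.639) and nhr-78 (0.508 and 0.559) had weak peaks in both replicates.

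**Figure D4:**
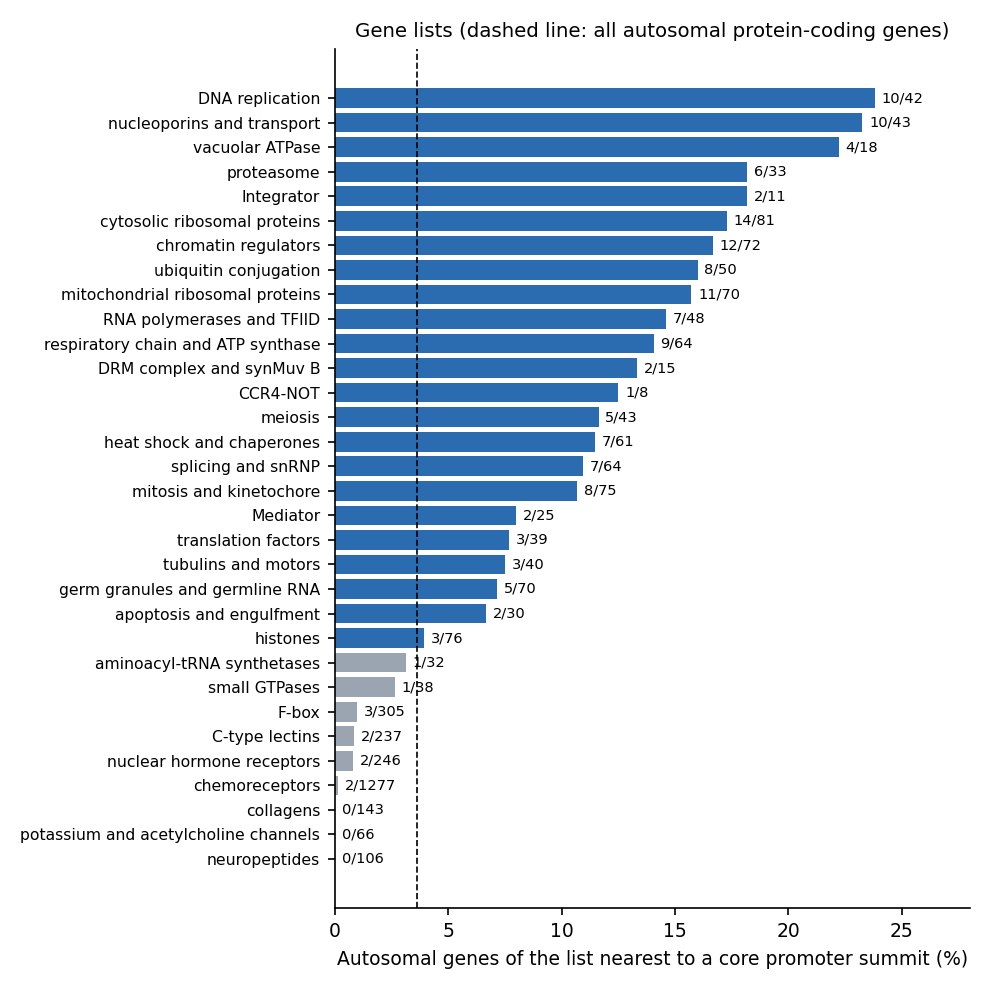
Share of the autosomal genes of each list that were the nearest gene of a core promoter summit, in percent, with the numbers of genes beside the bars. The dashed line is the 3.61% of all autosomal protein-coding genes; blue bars lie above it and grey bars below. DNA replication is highest at 23.8%, and 3 lists are at 0.

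The DNA at the summits was rich in G and C over a narrow stretch. The summit windows, 50 bp on each side, had a mean GC content of 46.5% ± 7.80 (SD over 630 windows), and 46.2% and 47% when centred on the own summits of replicates 1 and 2. Windows centred 156 bp upstream of all 17242 autosomal protein-coding 5′ ends, the median distance of the summits, had 33.9% ± 8.23. Of the peak classes the core promoter windows had the lowest mean, beside 47% at bidirectional, 47.7% inside gene starts, 47.9% at upstream peaks, 49.8% away from promoters and 51.8% on the X chromosome. The fixed promoter windows at the 623 genes with a core promoter summit had 39.2%, between the summit windows and all promoter windows. CG dinucleotides numbered 7.23 in a summit window and 3.06 in a promoter window. Among windows with a GC content of 40 to 55% they numbered 7.41 and 5.12, so the summit windows held more CG within this band as well. The band narrowed the difference in GC content without removing it. Mean GC content within it was 47.46% in the summit windows and 45.03% in the promoter windows. How far this remaining difference accounts for differences within the band was not tested. Below, like GC content means this band. Soft-masked letters, which RefSeq uses for repetitive sequence, made up 25.9% of the summit windows and 36.9% of the promoter windows.

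Short motifs were then counted on both strands of these windows, for a list of 22. GAGCG stood in 225 of the 630 summit windows (35.7%), against 6.33% of the promoter windows. Among windows of 40 to 55% GC the shares were 34.2% and 13.5%. The share was 34.6% and 35.8% around the own summits of the replicates, 38% at bidirectional and 33.5% at upstream peaks, so it is not peculiar to the core promoter. Of the 336 occurrences within 100 bp of a summit 51.2% had their centre within 25 bp of it. Of the copies centred within 50 bp of a summit 92 lay on the gene's strand and 176 on the other.

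Windows with GAGCG had stronger peaks. Their median multiple was 2.28 in replicate 1 and 1.78 in replicate 2, against 1.24 and 1.10 without it. With the members ordered by deposited signal into 4 groups, 57.6% of the strongest had GAGCG, and 32.5%, 25.9% and 26.8% of the following groups. Most holders had a single copy, 192 windows, while 31 had 2 copies and 2 had 3 or more.

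**Figure D5:**
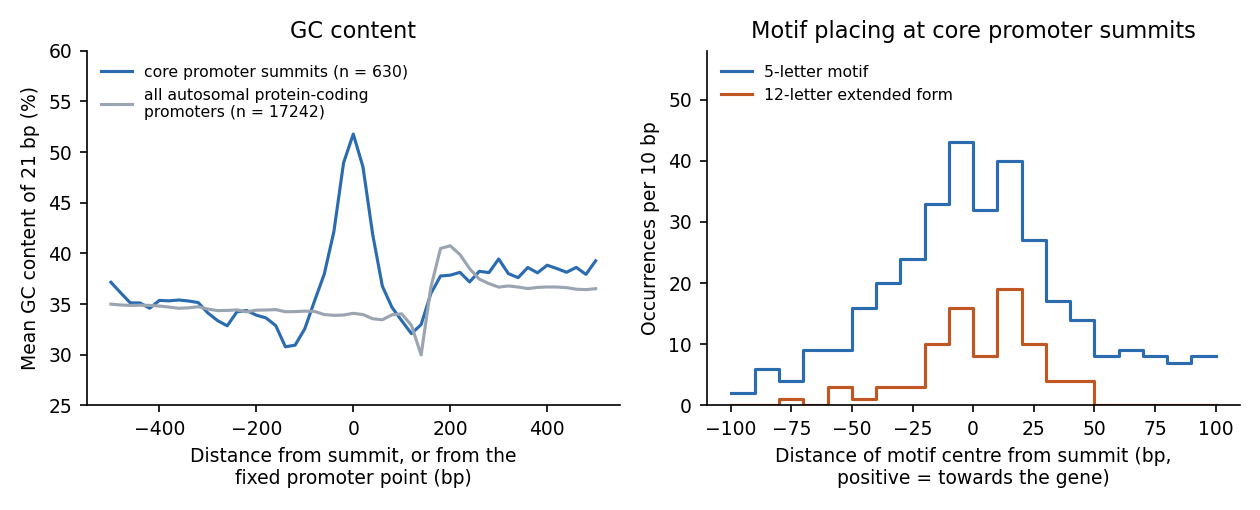
Left, mean GC content of 21 bp steps around the 630 core promoter summits (blue) and around the fixed point 156 bp upstream of 17242 autosomal 5′ ends (grey), in percent. Right, number of occurrences per 10 bp of the 5-letter motif GAGCG (blue) and its 12-letter form (orange) by distance from the summit, positive towards the gene; both are densest within about 25 bp of the summit.

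GAGAGA stood in 122 windows (19.4%), against 8.03% of promoter windows, and among windows of like GC content in 19.5% against 15.4%. It was no more frequent than at all other conservative peaks (21%), and windows with it had lower medians, 1.16 and 1.19, than those without, 1.51 and 1.30. CTGCGTC was in 66 (10.5%), against 1.82%, and CGCGCG in 59 (9.37%), against 1.23%. At like GC content these were 10.6% against 5.55% and 9.88% against 3.58%. At all other conservative peaks CTGCGTC stood in 9.04% and CGCGCG in 6.75%. Bidirectional peaks had CTGCGTC in 8.78% and CGCGCG in 9.92%, and upstream peaks in 9.92% and 6.75%. So neither is peculiar to the core promoter. At least 1 of these 4 motifs was found in 348 windows (55.2%), against 15.3% of promoter windows, and 282 windows had none. Windows without any of them still had 45.6% GC, and their median multiples were 1.27 and 1.10.

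Sites known for E2F and for the DRM complex were counted as well. The E2F form GGCGGG stood in 8.10% of the summit windows, against 2.13% of the promoter windows. For GCGCGAA the shares were 5.24% and 0.847%, and for TTCCCGC 4.92% and 1.22%. Among windows of 40 to 55% GC the differences were smaller, at 7.23% and 5.69% for GGCGGG, 5.06% and 1.89% for GCGCGAA and 4.82% and 2.73% for TTCCCGC. At all other conservative peaks GGCGGG stood in 7.76%, close to its core promoter share, and TTCCCGC in 3.09%. For GCGCGAA the share was 6.99% at bidirectional peaks, above the core promoter share, 4.96% at upstream peaks and 2.82% away from promoters. TTCCCGC stood in 4.37% of the windows at upstream and 3.74% at bidirectional peaks. Around the own core promoter summits of replicates 1 and 2 its share was 4.94% and 3.67%. So none of these E2F forms is peculiar to the core promoter. With GCGCGAA the median multiples were 2.61 and 2.16, from 33 windows. The CHR form TTTGAA was in 25.2%, against 30.3% of promoter windows, but among windows of like GC content in 22.7% against 16.1%, so its direction turned with GC content. The share was 23.4% at bidirectional, 17.5% at upstream and 12.5% at peaks away from promoters. AT-rich letters were scarcer than at promoters at large, with smaller differences at like GC content. TATAAA stood in 3.49% against 13.5%, the run TTTTTTTT in 5.08% against 13.5% and the GATA site TGATAA in 4.44% against 11.6%. Among windows of 40 to 55% GC these shares were 2.89% against 4.70%, 3.61% against 4.22% and 3.37% against 6.93%. CCAAT was at 17.8% in both, and the second CHR form TTCGAA at 6.98% against 6.94%.

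The remaining listed motifs were rare at the summits or differed little from promoters at large. The E-box CACGTG stood in 4.13% of the summit windows, against 1.72%, or 4.58% against 2.68% at like GC content. GTCTCTG was in 1.90%, against 0.853%, but among windows of like GC content in 1.45% against 1.83%, and it stood in 2.93% of all other conservative peaks. The forkhead site TGTTTAC was at 1.90% and 1.71%, and the ETS site GGAAGT at 3.97% and 4.3%. Scarcer than at promoters were TTTCAG (10% against 15.8%, and 10.1% against 10.6% at like GC content), the letters of a splice acceptor, AAAATTTT (2.06% against 4.9%) and ACTACAA (0.317% against 2.08%). The cyclic AMP response element TGACGTCA stood in a single summit window, that of mcm-2, or 0.159% against 0.661%. CCATCTT was at 0.476% against 0.998%.

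The 12-letter form stood in 75 of the 630 windows (11.9%), against 94 of 17242 promoter windows (0.545%), or 1.21% of those with 40 to 55% GC. It made up 33.3% of the core promoter windows with GAGCG and 8.61% of the promoter windows with GAGCG. Around the replicates' own summits the share was 12.1% and 11.3%, and from 9.27% on chromosome I to 15.5% on chromosome IV. It is not peculiar to the core promoter: the share was 12.4% at bidirectional peaks, 9.13% at upstream peaks, 7.42% on the X chromosome, 7.24% away from promoters and 6.79% inside gene starts. Since the letters were read from these windows, the excess describes the choice as well as the sites.

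Peaks with this form had higher signal than the other core promoter peaks. The form was seen first in strong windows of this list, so its link with signal partly restates that choice. The 75 had median multiples of 4.51 in replicate 1 and 3.35 in replicate 2, the 150 with GAGCG alone 1.64 and 1.45, and the 405 without GAGCG 1.24 and 1.10. It stood in 46 of the 158 strongest windows (29.1%), then in 14, 11 and 4 of the following groups of like size. Among the 25 strongest core promoter peaks 12 had it and 16 had GAGCG. Of its 82 occurrences within 100 bp 72.0% lay within 25 bp of the summit, with a median distance of 15.5 bp.

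Most copies of this form in the core promoter stretch lay at a peak. The form was read from strong windows at these same summits, so the shares below partly restate that choice. On the autosomes the 12-letter form occurred 1903 times, of which 336 (17.7%) lay within 50 bp of a conservative summit of any class. For GAGCG 1327 of 50715 did (2.62%). Within 1 to 300 bp upstream of a protein-coding 5′ end 141 of 211 occurrences of the 12-letter form lay at a summit (66.8%), against 494 of 3324 for GAGCG (14.9%). Of the 141, 71 lay at a core promoter summit and the others at summits of other classes. Further members with the form included the nuclear envelope gene baf-1 (8.54 and 8.87), the polyadenylation factor gene cpsf-1 (8.93 and 7.52), smg-8, of nonsense-mediated decay (8.42 and 5.66), and nrde-4, of nuclear RNA interference (6.22 and 6.20), all picked from the 75 after their values had been seen.

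The 6-mers with the largest excess on chromosomes I, II and III had a like excess on IV and V. GAGCGC stood in 20.9% of the core promoter windows of the first 3 chromosomes against 2.29% of their promoter windows, and in 23.4% against 1.47% on the others. For ACGCGC the shares were 20.9% against 3.14% and 27.5% against 1.97%. All 10 leading 6-mers contained CG and were among the first 20 on chromosomes IV and V as well. Promoter windows are poorer in GC and CG, and these shares were not set against windows of like GC content. Some windows share runs of letters across these sets of chromosomes, so the sets are not independent.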

How the data were processed

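ChIP-seq peak lists of 2 biological replicates, 1 group, were used. For aligner and peak caller, no names are given in the sources used here. The files use ce11, per the labels, which also name a possible control experiment; it was not used here, so the peaks stand without a measured background. The authors deposited peak lists held to an irreproducible discovery rate (IDR) of 0.01, that is a score of at least 830 of 1000; the deposited score follows the IDR. The deposited signal value is the peak caller's enrichment, of unstated scaling. No list holds read counts, so depth is unknown and single peaks have no interval.

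Each conservative peak took, in each replicate, the signal of the peak in that replicate's ranked list that overlapped it and had the closest summit, divided by the replicate's median over conservative peaks (87.3 and 66.7). Gene models were Ensembl release 115 and the sequence RefSeq's, both WBcel235, the assembly of ce11. Motifs were searched on both strands and could overlap. No test was made, as the design has 1 group and peaks are not replicates. The counting was tested on simulated data. Python 3.11.15, numpy 2.4.6, scipy 1.17.1 and matplotlib 3.10.9 were used.

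The members, gene lists and motifs were chosen with earlier results of these data known. Genes are named by rule: the 25 strongest and 5 weakest members, the 6 with the largest replicate ratios, and 3 on each side of each edge. From the gene lists up to 4 of the strongest of each are named, and all of the DRM and apoptosis lists. For each motif they are the strongest holders off chromosome I whose window overlaps no annotated exon or UTR. Further genes were named after their values had been seen.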

Additional observations from a re-analysis of the deposited data

How the results depend on the processing

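Recomputing 16 quantities under 15 alternatives gave 164 values, of which 127 stayed within the limit set for their quantity and 37 moved. The limit was the spread between replicates, or a 95% interval for other shares and the SD. For the count of peaks and the share of all genes it was 1.5 times the reported value. The intervals treat peaks or genes as independent, which they are not, so they serve only as a yardstick. Only the ratios to other peaks could reverse, by crossing 1, and 0 did. No paired analysis was possible because the replicates form 1 group. With replicate 1 or replicate 2 left out, the peaks were those of the other replicate's own thresholded list, with 492 and 607 core promoter peaks. Signals were still divided by that replicate's median over conservative peaks. On these lists the core promoter median ranged from 1.52 to 1.61 and its ratio to the bidirectional median from 0.806 to 0.808. The conservative core promoter peaks had medians of 1.44 in replicate 1 and 1.26 in replicate 2, so the change of list enters these values. The distance ranged from 150 to 158 bp and GC content from 45.4 to 47.8%. The GAGCG share ranged from 34.9 to 39.8% and the GAGAGA share from 16.1 to 20.1%. The ratio to bidirectional peaks was 0.774 on the pooled list, 0.780 at the highest score only, 0.777 with a limit of 500 bp and 0.747 with the strongest overlapping replicate peak. On the pooled list the SD of the log2 ratio was 0.67 and 65.8% of peaks were in both own lists; this share was 79.6% at the highest score, where the median was 1.53, and 58.3% with a reciprocal overlap of 50%. With the strongest overlapping peak the SD was 0.48. A limit of 200 bp left 414 peaks, a median distance of 122 bp, 2.40% of genes and 2.47% of cytosolic ribosomal protein genes; with 500 bp the distance was 205 bp, the ratio to upstream peaks 1.56 and the ribosomal share 28.4%, through the width of the window. In windows of 25 and of 100 bp on each side of the summit the GC content was 50.2 and 41.0%, GAGCG 24.1 and 42.9%, GAGAGA 11.6 and 29.8%, CTGCGTC 6.67 and 14% and CGCGCG 6.19 and 12.4%, with promoter windows of the same length at 34.0 and 33.9% GC and at 3.11 and 12.5% for GAGCG. The 12-letter form was in 8.25% of the shorter windows; its alternatives were chosen after seeing the data. The cause of the other changes was not tested. The unknown depth limits what can be said of weak peaks.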

Other observations

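Parts of some core promoter windows recurred elsewhere. Of the 630 windows 92 (14.6%) shared a run of at least 20 letters, on either strand, with the window of another core promoter peak. The windows of ntl-11 and Y73F8A.27, which are divergent neighbours on chromosome IV, shared such a run with their summits 977 bp apart. The window of unc-85 on chromosome II shared one with windows on other chromosomes, among them F44E7.4, the muscle myosin chaperone gene unc-45, mrpl-2 and the histone methyltransferase gene set-25. Soft-masked letters made up 40.8% of the 75 windows with the 12-letter form and 25.1% of the 405 without GAGCG, beside 36.9% of promoter windows. These genes were named after their values had been seen.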
